A study of Mus musculus with 6 samples.

Results

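The chaperonins are large ring-shaped machines that fold proteins inside a closed chamber. The genes examined here are Tcp1, Cct2, Cct3, Cct4, Cct5, Cct6a, Cct7 and Cct8, which encode the subunits of the cytosolic ring (CCT, also called TRiC), and Hspd1 and Hspe1, which encode the mitochondrial chaperonin Hsp60 and its lid Hsp10. They were taken by symbol as members of the family. The rule used no measured value, but the family was chosen with earlier results of these data known. All 10 listed genes were found among the 37991 gene identifiers counted, and all 10 were among the 16683 genes that passed the filter on low counts and were tested.

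CCT binds newly made proteins that cannot fold unaided, above all actin and tubulin, and closes over them while ATP is hydrolysed. Each of its subunits occupies a fixed place in the ring, so a complete ring needs all of them. Hsp60 folds proteins that have been imported into the mitochondrial matrix, and Hsp10 caps its chamber. Rapidly growing cells make many new proteins, and Myc is known as a transcription factor that raises the genes of ribosomes, of metabolism and of protein folding.

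The RNA came from precursor B cells, the bone marrow cells that give rise to antibody-producing cells, sorted with antibodies to B220, IgM and IgD from single C57BL/6 mice. Wild type libraries came from littermates without the transgene, aged 4 to 6 weeks, and premalignant libraries from Eμ-Myc heterozygotes of the same age, sorted as B220 high, IgM low and IgD low cells. Malignant libraries came from Eμ-Myc heterozygotes aged 10 to 20 weeks that had developed lymphoma, sorted as B220+ IgM- IgD- cells, so stage, age and sorting gate cannot be told apart for them. The Eμ immunoglobulin enhancer drives the Myc transgene in cells of the B lineage. The mice were female in the first 2 stages and of both sexes in the malignant stage, so sex too may differ with stage. Each of the 3 stages had 2 libraries.

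Polyadenylated RNA was sequenced, and 30031100 to 53453055 reads per library were counted on genes, so that 3 reads corresponded to 0.0526 to 0.108 counts-per-million (CPM, on normalised library sizes). In every stage the library numbered 1 was the deeper one. The level of Myc checks only the labels of wild type against Eμ-Myc libraries. It was 33.8 and 41.4 CPM in wild type, 1164 and 1155 CPM in premalignant and 1732 and 1578 CPM in malignant libraries. Between malignant and premalignant cells its log2 fold change was 0.51 ± 0.16 (SE, edgeR, adjusted p = 0.161). The lowest member value was 2800 reads (Hspe1 in wild type 2). A gene was called when the adjusted p of edgeR's quasi-likelihood test was at most 0.1 over all genes tested and its log2 fold change was at least 0.5 in size. Of all genes tested, 19% were called higher and 20.3% lower in premalignant vs. wild type cells, and 24.9% were called higher and 24.3% lower in malignant vs. wild type cells. Scaling by total counts alone shifted these splits, to 2247 genes higher and 4438 lower (from 3169 and 3394) in premalignant and to 2957 higher and 5367 lower (from 4153 and 4059) in malignant cells. Because an exact two-sided permutation test of 2 libraries against 2 cannot go below p = 0.333, calls were taken from the fit to all genes.

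All 8 CCT subunit genes were higher in premalignant than in wild type cells, by 2.20-fold (Cct4) to 3.58-fold (Cct6a), and both premalignant libraries lay above both wild type libraries for each of them, as they did for 36.2% of all genes tested. Each of the 8 passed the test, beside a background of 19% of genes called higher. In malignant vs. wild type cells they were higher by 2.20-fold (Cct4) to 4.39-fold (Cct3), and again all 8 were called, beside 24.9% of genes. Both malignant libraries lay above both wild type libraries for all 8, against 35.3% of all genes. The median log2 fold change of the 8 subunits was 1.30 in premalignant and 1.64 in malignant cells, where the median of all genes tested was -0.08 and -0.02.

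Tcp1, the founding member of the family, encodes the alpha subunit. It measured 283 and 228 CPM in wild type, 604 and 609.6 CPM in premalignant and 710.5 and 515 CPM in malignant libraries. Both libraries of each Eμ-Myc stage lay well above both wild type libraries, and the malignant pair enclosed the premalignant pair. The log2 fold change was 1.25 ± 0.20 (SE) in premalignant (edgeR, adjusted p = 0.00802) and 1.26 ± 0.20 in malignant cells (edgeR, adjusted p = 0.00479).

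Cct2, the beta subunit gene, measured 326 and 302 CPM in wild type, 676 and 729 CPM in premalignant and 927 and 836 CPM in malignant libraries. The 3 stages did not overlap and followed each other in that order. Its log2 fold change was 1.16 ± 0.14 (SE) in premalignant (edgeR, adjusted p = 0.00375) and 1.49 ± 0.14 in malignant cells (edgeR, adjusted p = 0.00109).

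Cct3, which encodes the gamma subunit, had 167 and 144 CPM in wild type, 523 and 558 CPM in premalignant and 605 and 762 CPM in malignant libraries. No other CCT gene had a larger fold change in malignant vs. wild type cells, with a log2 fold change of 2.14 ± 0.18 (SE, edgeR, adjusted p = 0.000759) after 1.80 ± 0.17 in premalignant cells (edgeR, adjusted p = 0.0023).

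Cct4, the delta subunit gene, had 201 and 178 CPM in wild type, 414 and 421 CPM in premalignant and 442 and 392 CPM in malignant libraries. Its values in the Eμ-Myc stages overlapped each other and stood clear of wild type. The log2 fold change was 1.14 ± 0.14 (SE) in both stages, with an adjusted p of 0.0038 and 0.00211 (edgeR).

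Cct5, the epsilon subunit gene, measured 249.7 and 219.7 CPM in wild type, 567 and 585 CPM in premalignant and 624 and 875 CPM in malignant libraries. Its log2 fold changes from wild type were 1.29 ± 0.20 (SE, edgeR, adjusted p = 0.00654) and 1.68 ± 0.20 (edgeR, adjusted p = 0.0018). The malignant libraries were far apart for this gene, and the higher of them was malignant 2.

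Cct6a, the zeta subunit gene of most tissues, rose from 125 and 108 CPM in wild type to 410.5 and 425 CPM in premalignant and 452 and 423 CPM in malignant libraries. No other CCT gene had a larger fold change in premalignant cells (log2 1.84 ± 0.14 (SE), edgeR, adjusted p = 0.00173), and the value in malignant cells was 1.91 ± 0.14 (edgeR, adjusted p = 0.000656). Its close relative Cct6b, a zeta subunit gene known from testis, was near the floor at 0.227 to 0.358 CPM over all 6 libraries and was not called in either comparison with wild type.

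Cct7 and Cct8, which encode the eta and theta subunits, behaved like Cct5 in that malignant 2 exceeded malignant 1. Cct7 measured 200.2 and 174 CPM in wild type, 455 and 472 CPM in premalignant and 463 and 676 CPM in malignant libraries, with log2 fold changes from wild type of 1.31 ± 0.21 (SE, edgeR, adjusted p = 0.00747) and 1.60 ± 0.21 (edgeR, adjusted p = 0.00244). Cct8 measured 235 and 198 CPM in wild type, 630.4 and 654 CPM in premalignant and 685 and 831 CPM in malignant libraries, with log2 fold changes of 1.57 ± 0.17 (SE, edgeR, adjusted p = 0.00276) and 1.81 ± 0.17 (edgeR, adjusted p = 0.00101). For Cct7 the malignant 1 library lay between the premalignant pair, whereas for Cct8 both malignant libraries lay above.

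**Figure D1:**
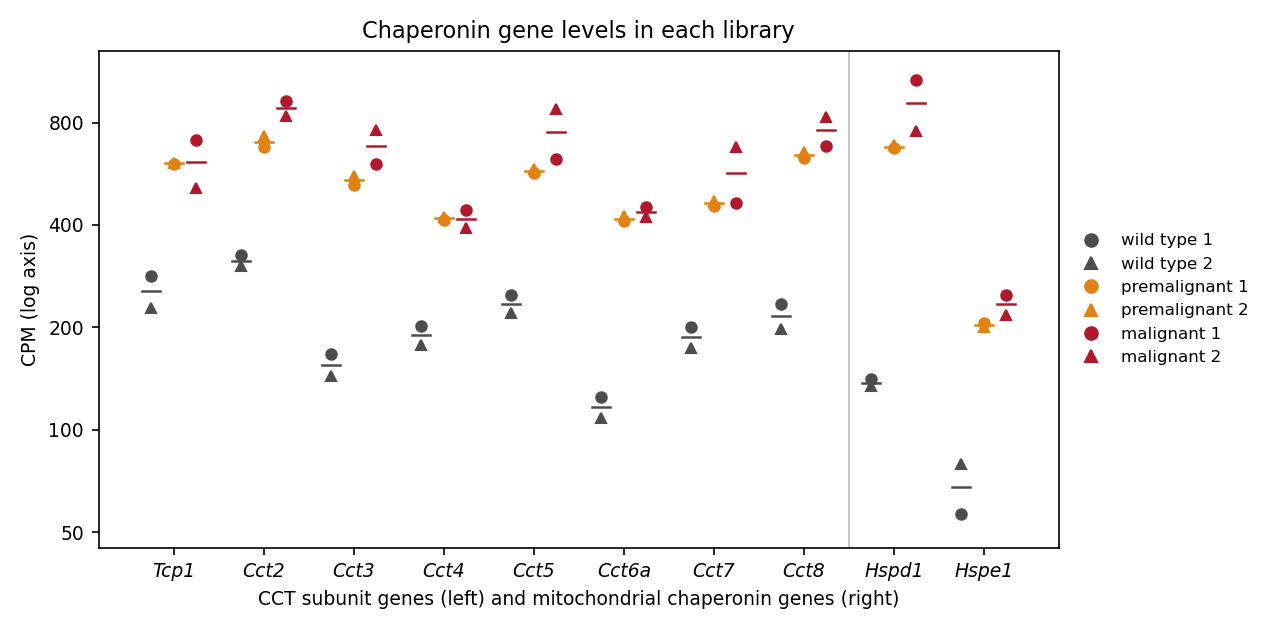
Levels of the 10 chaperonin genes in CPM (vertical log axis), with each library as a point (circles, libraries numbered 1; triangles, libraries numbered 2) and the mean of each stage as a bar. Every wild type point of a gene lies below all of its premalignant and malignant points, from Hspe1 at 56.6 CPM in wild type 1 to Hspd1 at 1066 CPM in malignant 1, where 36.2% (premalignant) and 35.3% (malignant) of all genes tested lay wholly above wild type.

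Hspd1 rose more than any other member. It measured 141 and 134 CPM in wild type, 671 and 686 CPM in premalignant and 1066 and 755 CPM in malignant libraries, so that the premalignant level was 4.93-fold and the malignant level 6.61-fold that of wild type. The log2 fold changes were 2.30 ± 0.20 (SE, edgeR, adjusted p = 0.00193) and 2.73 ± 0.20 (edgeR, adjusted p = 0.000656), and 98.6% and 97.6% of all genes tested had a lower value in these comparisons. Hspe1 measured 56.6 and 79.3 CPM in wild type, 205 and 201 CPM in premalignant and 249 and 218 CPM in malignant libraries. Its log2 fold changes were 1.58 ± 0.19 (SE, edgeR, adjusted p = 0.00363) and 1.78 ± 0.19 (edgeR, adjusted p = 0.0014), smaller than those of its partner in both stages, a difference that was not tested. Over all 10 members the median log2 fold change was 1.44 (2.71-fold) in premalignant and 1.73 (3.31-fold) in malignant cells. Together the reads of the 10 genes equalled 0.198% and 0.177% of the normalised library size in wild type. The values were 0.516% and 0.534% in premalignant and 0.622% and 0.628% in malignant libraries. These are not shares of reads, because the normalised size is the read total times a factor. That factor was 1.12 and 1.13 in wild type, 0.982 and 0.961 in premalignant and 0.903 and 0.929 in malignant libraries.

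Hspd1 and Hspe1 lie head to head on chromosome 1 (NCBIM37), Hspd1 at 55134679 to 55145087 on the minus strand and Hspe1 at 55144976 to 55148151 on the plus strand. In the annotation their exons share 112 bp, and the sequencing kit does not keep the strand, so reads in these bases cannot be assigned to either gene. Upstream of Hspe1, and of one of the start sites that RefSeq gives Hspd1, lies a match to the heat shock element, the inverted GAA repeat that heat shock factors bind. It is shown from RefSeq (GRCm38.p6) as it reads on each strand, with the bases of the searched motifs GAANNTTC and TTCNNGAA in capitals, because both genes carry these same 18 bases before a start site.
Hspd1 (chr1:55088053-55088082, minus strand): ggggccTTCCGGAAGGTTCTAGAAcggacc
Hspe1 (chr1:55088053-55088082, plus strand): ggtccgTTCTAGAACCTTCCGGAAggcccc

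The capitals begin 144 bases before a start site of Hspd1 and 89 bases before that of Hspe1. RefSeq also gives Hspd1 a start site farther upstream, whose promoter holds the letters CACGTG of the E-box to which Myc and Max bind, beginning 80 bases before the start. Among the CCT genes, a single GAANNTTC was found before a start site of Cct2, beginning at base -42, and a single TTCNNGAA before one of Cct5, beginning at base -34. These 3 stretches are shown with the motif in capitals, since they are the other matches among the members.
Hspd1, upstream start (chr1:55088306-55088335, minus strand): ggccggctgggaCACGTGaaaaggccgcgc
Cct2 (chr10:117063399-117063428, minus strand): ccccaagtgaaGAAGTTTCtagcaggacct
Cct5 (chr15:31601862-31601891, minus strand): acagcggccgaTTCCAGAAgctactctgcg

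The search covered the 250 bases before each start site, on both strands, for CACGTG, GAANNTTC and TTCNNGAA, where the last 2 overlap within the repeat of Hspd1 and Hspe1. RefSeq promoters were at hand for 9 of the 10 members, 12 promoters in all, and not for Cct4. CACGTG was found in 1 of the 9 members, against 6.86% of all 27025 genes with a RefSeq promoter. These bases of Hspd1 (chr1:55088318-55088323) lie past the start of Hspe1, whose searched window ended at 55088147. They were therefore not counted for Hspe1. GAANNTTC and TTCNNGAA were each found in 3 of the 9, against 7.73% and 8.11% of all genes. For each motif, 2 of these 3 were Hspd1 and Hspe1, which carry the same bases, so the 3 are not independent. The other was Cct2 for GAANNTTC and Cct5 for TTCNNGAA. Tcp1, Cct3, Cct6a, Cct7 and Cct8 held none of these letters in these windows, and their log2 fold changes in malignant cells ran from 1.26 (Tcp1) to 2.14 (Cct3). All 5 were called higher, as was every other member, so the calls cannot separate genes with a match from those without. Any part of these letters in the changes was not tested.

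In malignant vs. premalignant cells none of the 10 members was called, beside a background of 3.73% of genes called higher and 2.45% called lower (623 and 408 genes, or 487 and 492 with upper-quartile scaling). With edgeR 0 of the 10 had an unadjusted p under 0.05, and with DESeq2 1 of the 10 did, but none was called. The adjusted p of edgeR ran from 0.27 for Cct2 to 0.996 for Cct4. Log2 fold changes lay between 0.00 for Cct4 (malignant 0.998-fold of premalignant) and 0.42 ± 0.19 (SE) for Hspd1 (1.34-fold), and the median was 0.27 where that of all genes was 0.04. For Cct2, Cct3, Cct5, Cct8, Hspd1 and Hspe1 both malignant libraries lay above both premalignant ones, which was the case for 25.9% of all genes tested. With standard errors of 0.14 to 0.21, a further rise of the size seen for Hspd1 could not be separated from the spread of these libraries, which does not show that the stages have equal levels.

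The premalignant libraries agreed closely and the malignant libraries did not. Over the 10 members the ratio of library 2 to library 1 was 0.977 to 1.08 in premalignant cells and 0.709 (Hspd1) to 1.46 (Cct7) in malignant cells. Cct3, Cct5, Cct7 and Cct8 were higher in malignant 2, while Tcp1, Cct2, Cct4, Cct6a, Hspd1 and Hspe1 were higher in malignant 1. Calls in this comparison depended on which malignant library was kept. Without malignant 1, Cct5 (log2 0.60, edgeR, adjusted p = 0.041) and Cct7 (log2 0.55, edgeR, adjusted p = 0.061) were called higher, and without malignant 2, Hspd1 was (log2 0.62, edgeR, adjusted p = 0.021). Such fits assume that the lone malignant library varies like those of the other stages. Against wild type all 10 members were called higher in both comparisons whichever library was left out.

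The premalignant log2 change from wild type amounted to 77.3% (Cct5) to 100.3% (Cct4) of the malignant one. Between libraries of like depth the direction from wild type was the same for all 10 members. Within the libraries numbered 1, premalignant exceeded wild type by 1.04 to 2.25 on the log2 scale and malignant exceeded wild type by 1.13 to 2.91. Within the libraries numbered 2, these ranges were 1.24 to 2.35 and 1.14 to 2.49. Malignant exceeded premalignant for 10 of 10 members within the libraries numbered 1 and for 7 of 10 within those numbered 2.

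**Figure D2:**
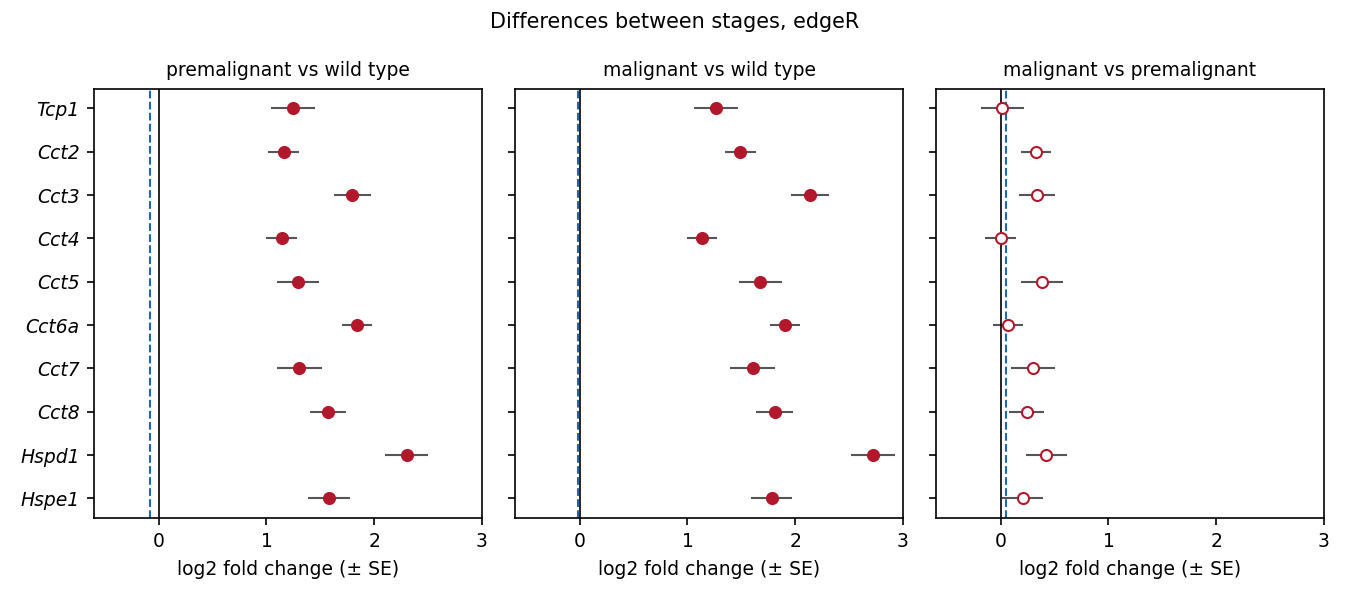
Log2 fold change of each member with its standard error (horizontal axis) in the 3 comparisons, where filled points were called, open points were not, and the dashed line is the median of all genes tested. All members lie at 1.14 or above against wild type and between 0.00 and 0.42 in malignant vs. premalignant cells.

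Levels of different genes were compared per length, as reads per kilobase of annotated exon and library size, that is, RPKM. Cct2 was the highest CCT subunit gene in every library, at a mean RPKM of 179.7 ± 8.001 (SD, n = 2) in wild type cells. It reached 348 ± 13.4 RPKM in premalignant and 411 ± 21.5 RPKM in malignant cells. The lowest was Cct3 in wild type (37.2 ± 3.53 RPKM) and Cct4 in premalignant (96.6 ± 0.34) and malignant cells (90.8 ± 5.94). The highest subunit gene thus stood 4.82-fold above the lowest in wild type, 3.60-fold in premalignant and 4.53-fold in malignant cells. In wild type the order ran Cct2, Cct8, Cct5, Cct7, Cct6a, Tcp1, Cct4 and Cct3. The ranges overlapped between Cct8 and Cct5, Cct5 and Cct7, Cct7 and Cct6a, and Tcp1 and Cct4. In premalignant cells the order was Cct2, Cct8, Cct6a, Cct5, Cct7, Tcp1, Cct3 and Cct4 with no overlap between neighbours. In malignant cells Cct6a, Cct5 and Cct7 overlapped in turn, as did Cct3 and Tcp1. These ranks depend on the length used. Dividing by the longest transcript lowered the ratio of highest to lowest to 3.43, 2.21 and 2.68, and dividing by the number of 50-base stretches found nowhere else in the genome lowered it to 2.18, 2.08 and 2.62, with Cct5 above Cct2 in malignant 2 under both.

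Shares of the summed CCT RPKM, in which a gene's length is the same in every library, also differed between stages, as a description without a test. Cct3, Cct6a and Cct8 took a higher share, and Tcp1 and Cct4 a lower share, in every Eμ-Myc library than in either wild type library. Cct6a took 11.998% and 11.8% of the sum in wild type, 16.2% and 16.1% in premalignant and 15.5% and 13.3% in malignant libraries. Cct3 took 5.45% and 5.38%, then 7.05% and 7.20%, then 7.06% and 8.19%. The share of Cct4 fell from 7.35% and 7.39% to 6.23% and 6.07% and then to 5.76% and 4.70%, with no overlap between stages. The gene itself was higher in both Eμ-Myc stages than in wild type, since shares of a sum cannot all rise together. Cct8 took 14.4% to 15.04% in wild type and 15.7% to 17.5% in the other libraries, and Tcp1 7.93% to 8.61% and 5.16% to 7.73%. In the mitochondrial pair, Hspe1 stood at 0.719 and 1.06 of the RPKM of Hspd1 in wild type, at 0.548 and 0.524 in premalignant and at 0.419 and 0.517 in malignant libraries, so that the ratio was lower in every Eμ-Myc library than in either wild type library. With the longest transcript as length the stage values were 1.24, 0.752 and 0.646.

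**Figure D3:**
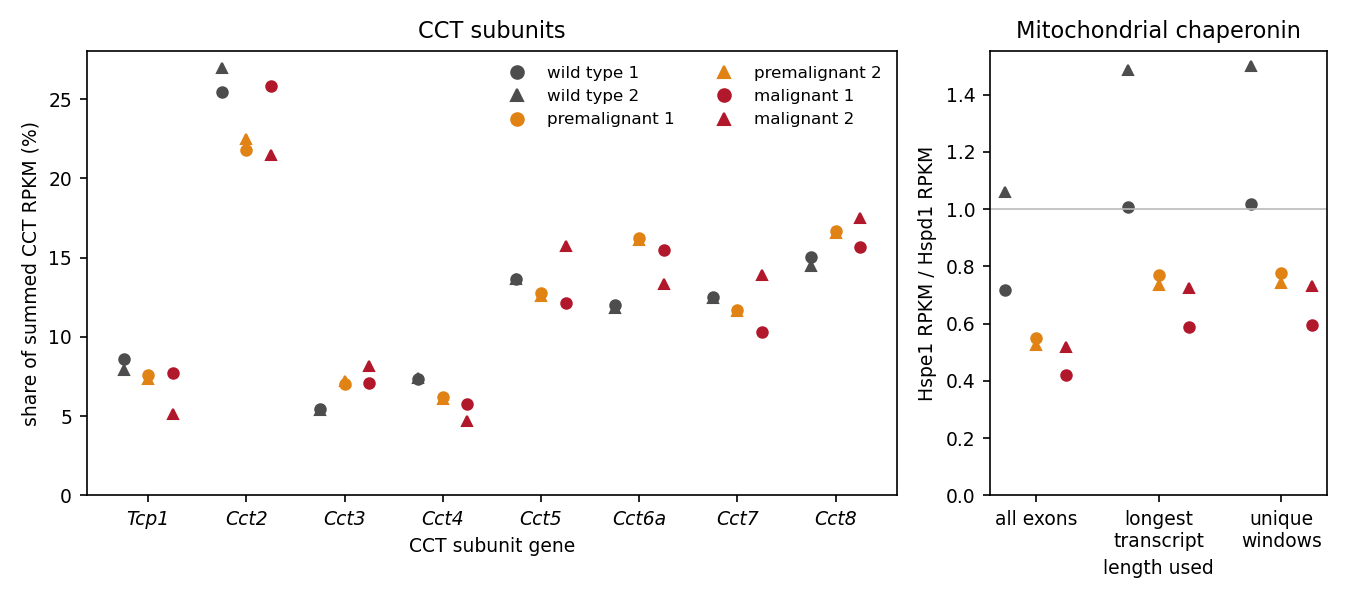
Left, each CCT subunit gene's share of the summed CCT RPKM in percent, and right, the ratio of Hspe1 to Hspd1 RPKM with length taken as all exons, the longest transcript or the number of 50-base windows found nowhere else. Points are libraries, and Cct6a and Cct3 shares are higher and the Hspe1 to Hspd1 ratio lower in all premalignant and malignant libraries than in wild type.

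Several members have near-identical copies in the genome, which matters for counts of 50-base reads. An exact search of NCBIM37 found that 58.5% of the 50-base windows of the Hspd1 transcript also occur elsewhere, at 12 places, and 46.5% of those of Hspe1, at 7 places. The share was 12.4% for Tcp1, 2.59% for Cct4, 2.13% for Cct3, 1.58% for Cct7 and 0% for Cct2, Cct5, Cct6a and Cct8. The Hspd1 copy that shares most is Gm12141, a pseudogene on chromosome 11 with 1334 shared windows. Laid on the Hspd1 coding sequence without gaps, it differed at 18 of 1722 bases (99.0% identical), with a longest identical run of 431 bases. The first place where they differ is shown, with the differing bases in capitals, to make plain how little separates a read of one from a read of the other.
Hspd1, coding bases 75 to 134: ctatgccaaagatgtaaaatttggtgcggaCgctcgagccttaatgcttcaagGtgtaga
Gm12141 (chr11:41312313-41312372, NCBIM37, plus strand): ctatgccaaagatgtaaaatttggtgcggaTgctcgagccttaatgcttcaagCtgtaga

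Gm12141 was counted at 3.19 and 3.79 CPM in wild type, 19.3 and 26.5 CPM in premalignant and 31.9 and 32.5 CPM in malignant libraries, in the same order of stages as Hspd1. Whether these are reads of the pseudogene or of Hspd1 cannot be told apart from the counts, and how the authors' counting treated reads with several places is not given in the sources used here. Adding the Gm12141 counts to those of Hspd1 moved its log2 fold changes by less than the spread between libraries. The Gm12141 counts were small beside those of Hspd1, so their addition could hardly move these values. It also leaves out the other places and any reads that were not counted. Hspd1 and Hspe1 levels are uncertain on this account, whereas the 4 CCT genes without any shared window were called higher in both comparisons with wild type as well. Tcp1 shares 291 windows with Acat2, an acetyl-CoA acetyltransferase gene that was counted at 11.5 to 25.1 CPM, far below Tcp1.

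Tcp1, Cct7 and Cct8 also share exon bases with genes on the opposite strand. These are 141 bp with Mrpl18 and 571 bp with Acat3 for Tcp1, 214 bp with 1700040I03Rik for Cct7 and 193 bp with Usp16 for Cct8. The partners were lower throughout, with Mrpl18, a mitochondrial ribosomal protein gene, at 52.3 to 103 CPM, Acat3 at 0.666 to 1.55 CPM, 1700040I03Rik at 10.9 to 19.2 CPM and Usp16, a histone deubiquitinase gene, at 54.4 to 75.5 CPM. In premalignant cells not every head-to-head neighbour was called higher, whereas in malignant cells all were, beside 19% and 24.9% of all genes tested. Mrpl18 and 1700040I03Rik are also among the genes with shared exon bases, so their counts are not independent of Tcp1 and Cct7. Fam173b, which starts 5 bp from Cct5, measured 13.1 and 13.6 CPM in wild type and 13.9 and 14.6 CPM in premalignant libraries. It was not called in premalignant cells (log2 0.09 ± 0.22 (SE), edgeR, adjusted p = 0.775). In malignant libraries it measured 19.3 and 26.0 CPM and was called higher (log2 0.76 ± 0.22, edgeR, adjusted p = 0.0319). Mrpl18 (log2 0.77 and 0.64) and 1700021C14Rik, which starts 117 bp from Cct3 (1.73 and 2.55, at 0.736 to 6.20 CPM), were called in both comparisons. 1700040I03Rik was called in malignant cells only (0.48 and 0.59, edgeR, adjusted p = 0.12 and 0.0593), with close values in the 2 comparisons. Psph, a serine synthesis gene that starts 186 bp from Cct6a, was called higher at log2 0.93 ± 0.28 in premalignant (edgeR, adjusted p = 0.048) and 1.50 ± 0.28 in malignant cells (edgeR, adjusted p = 0.0077).

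Beside the chaperonins, 118 other genes of protein folding in 11 lists were found, of which 115 were tested. In premalignant vs. wild type cells 52 of the 115 (45.2%) were called higher and 5 (4.35%) lower, beside 19% and 20.3% of all genes, with a median log2 fold change of 0.56. In malignant vs. wild type cells 59 (51.3%) were called higher and 9 (7.83%) lower, beside 24.9% and 24.3%, with a median of 0.68. The chaperonins, at medians of 1.44 and 1.73 and with all 10 called in both comparisons, stood above the medians of each of these lists. The premalignant count fell to 27 and 33 higher without premalignant 2 or 1 and to 30 without wild type 2, and was 44 to 61 without any other library, while the malignant count was 45 to 65 whichever library was left out. In malignant vs. premalignant cells 5 of the 115 (4.35%) were called higher, namely Tubb6, Tubb2a, Bag2, Bag3 and Sil1, and none lower, beside 3.73% and 2.45% of all genes. By edgeR this count was 0 without either premalignant library (4 and 6 of 115 at an unadjusted p under 0.05), 2 higher without either wild type library, 17 higher and 2 lower without malignant 1, and 10 higher and 15 lower without malignant 2. It was 2 higher with only 2 stages fitted, 6 higher and 3 lower with DESeq2, and 7 higher and 4 lower without the filter on low counts. The gene lists were drawn up with earlier results of these data known.

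Genes of the mitochondrial folding system were called higher or not called, and Hspa9 came close to Hspd1. Of 7 genes of mitochondrial Hsp70 and its partners, 4 were called higher in premalignant and 5 in malignant cells, and none lower. The premalignant count was smaller without any 1 wild type or premalignant library and larger without either malignant library. The malignant count was smaller without wild type 2. Hspa9, the mitochondrial Hsp70 that pulls proteins into the matrix and passes them to Hsp60, measured 152 and 143 CPM in wild type, 594 and 624 CPM in premalignant and 734 and 972 CPM in malignant libraries (log2 2.05 ± 0.18 and 2.53 ± 0.18 (SE), edgeR, adjusted p = 0.00193 and 0.000633). Trap1, the mitochondrial Hsp90, had log2 fold changes of 1.42 and 1.92. Of 10 genes of mitochondrial proteases and prohibitins, 6 and 7 were called higher and none lower. Phb, a prohibitin of the inner membrane, had the largest rise of that list in malignant cells (log2 2.00 ± 0.12 and 2.22 ± 0.13), and Lonp1, the matrix protease, had 1.14 and 1.18.

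The cofactors of CCT had lower medians than CCT itself, at 0.37 and 0.38 on the log2 scale. Tested were 10 genes of prefoldin, which hands actin and tubulin to CCT, and of the phosducin-like cofactors. In premalignant cells 3 were called higher and none lower, beside 19% and 20.3% of all genes. In malignant cells 4 were called higher and 1 lower, beside 24.9% and 24.3%. The premalignant count was 1 without wild type 2 or premalignant 2 and 2 without premalignant 1, and the malignant one was 2 higher and 2 lower without wild type 2. Pfdn2, a prefoldin subunit gene, rose from 31.9 and 30.5 CPM in wild type to 61.8 and 63.6 CPM in premalignant and 87.8 and 76.7 CPM in malignant libraries (log2 1.01 ± 0.14 and 1.40 ± 0.14 (SE), edgeR, adjusted p = 0.00507 and 0.00117). Vbp1, another prefoldin subunit gene, had 129.8 and 99.6 CPM in wild type, 108 and 111 CPM in premalignant and 96.5 and 82.2 CPM in malignant libraries and was not called in either comparison (log2 -0.07 and -0.36). It was called lower in malignant cells under upper-quartile scaling, under total counts and without wild type 2. The fall of Pdcl, a phosducin-like gene, in malignant cells (log2 -0.64, edgeR, adjusted p = 0.0527) was lost when wild type 1, malignant 2 or either premalignant library was left out (adjusted p up to 0.243).

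Of the 19 tested genes for clients of CCT, 9 were called higher in premalignant and 10 in malignant cells, and none lower. The premalignant count was 4 without premalignant 2 and 5 without premalignant 1 or wild type 2. Actb, the beta-actin gene and the main client, was abundant and not called in either comparison, at 2354 and 2208 CPM in wild type, 2466 and 2698 CPM in premalignant and 2603 and 2541 CPM in malignant libraries (log2 0.18 and 0.17, and -0.03 and -0.12 under total counts). Tubb5, a beta-tubulin gene, was 2.05-fold higher in premalignant cells (log2 1.04 ± 0.19 (SE), edgeR, adjusted p = 0.0114) and 1.47-fold higher in malignant cells (log2 0.55 ± 0.19, edgeR, adjusted p = 0.0552). The malignant call was lost without wild type 2 (log2 0.36), without either premalignant library, with upper-quartile scaling (0.39), total counts (0.26), at least 10 counts in every library (0.47) and only 2 stages fitted (0.56). The premalignant one was lost without premalignant 2 (adjusted p = 0.113). Tubb6, another beta-tubulin gene, was at 1.30 to 1.67 CPM in wild type and premalignant libraries and at 28.8 and 21.8 CPM in malignant ones (log2 4.09 ± 0.31 vs. wild type, edgeR, adjusted p = 0.000679). Of the 6 tubulin cofactors, which act after CCT, 2 were called in premalignant and 1, Tbca, in malignant cells (log2 0.79 ± 0.18, and 0.50 and not called with total counts). No cofactor was called in premalignant cells (edgeR) without wild type 1, wild type 2, premalignant 1 or premalignant 2. Of the 4 tested chaperonin-like genes, Bbs12, a gene of the cilium-forming BBS chaperonin complex, was the 1 called higher in both comparisons (log2 1.38 ± 0.47 and 2.00 ± 0.47), the first of which was lost without wild type 2 or either premalignant library and with total counts. Of all genes tested, 19% and 24.9% were called higher in these comparisons, and the counts of both small lists were close to those shares.

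Genes of the cytosolic Hsp70 system differed among themselves. Hspa8, the constitutive Hsp70, rose from 628 and 615 CPM in wild type to 2078 and 1664 CPM in premalignant and 1418 and 2002 CPM in malignant libraries (log2 1.59 ± 0.22 and 1.46 ± 0.22 (SE), edgeR, adjusted p = 0.00521 and 0.00394). Hspa1b, the stress-inducible Hsp70, was called lower in both comparisons, but its 43.0 CPM in wild type 2 stood beside 1.19 CPM in wild type 1 and 0.753 to 2.04 CPM in the other 4 libraries. Without wild type 2 it was no longer called, and its log2 fold change was -0.36 in premalignant and 0.22 in malignant cells. Its calls were also lost without either premalignant library, and the malignant one without malignant 1 (-3.41) and with only 2 stages fitted (-4.00). Of the 9 tested cytosolic Hsp70 and Hsp110 genes, 4 were called higher and 1 lower in premalignant cells and 5 higher and 2 lower in malignant cells. Fewer were called higher in premalignant cells without any 1 wild type or premalignant library, and more were called lower without either malignant library. In malignant cells both counts were smaller without wild type 2. Hsf1, the main heat shock factor gene, measured 46.9 and 54.5 CPM in wild type, 77.5 and 71.5 CPM in premalignant and 59.2 and 115 CPM in malignant libraries. It was not called in premalignant cells (edgeR, adjusted p = 0.207), but was without either malignant library (log2 0.57 and 0.62), with only 2 stages fitted (0.61) and without the filter on low counts (0.56). It was called in malignant cells (log2 0.78 ± 0.30, edgeR, adjusted p = 0.0828), a call that was lost without any 1 library other than malignant 1, with upper-quartile scaling, total counts, only 2 stages fitted or at least 10 counts in every library. Among the 4 heat shock factor genes 1 was called higher and 1 lower in malignant cells, beside 24.9% and 24.3% of all genes, and none in premalignant cells.

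Hsp90 and its co-chaperones held 10 genes called higher and 1 lower of 16 in each comparison with wild type, with medians of 1.03 and 1.22. The premalignant count was 5 without premalignant 2 and 6 without wild type 2, with none lower in either case. Hsp90ab1, the constitutive Hsp90, measured 1224 and 1452 CPM in wild type, 4325 and 4762 CPM in premalignant and 5543 and 3900.1 CPM in malignant libraries (log2 1.76 ± 0.23 and 1.82 ± 0.23 (SE), edgeR, adjusted p = 0.00433 and 0.0022). Fkbp4, an Hsp90 co-chaperone, had log2 fold changes of 1.76 and 1.91, and Unc45a, a myosin chaperone, fell in malignant cells (log2 -1.05 ± 0.21, edgeR, adjusted p = 0.0102). Of the 16 J proteins and nucleotide exchange factors, 8 were called higher in each comparison and 2 and 3 lower. In premalignant cells 4 were higher without wild type 2 or premalignant 2 and 5 without premalignant 1. Bag2, an Hsp70 exchange factor, had the largest rise of these (log2 3.06 ± 0.27 and 4.37 ± 0.28), and Dnajc7, which binds both Hsp70 and Hsp90, had the largest fall (log2 -1.26 ± 0.13 and -1.49 ± 0.13). In the endoplasmic reticulum list 5 of 14 genes were called higher and 1 lower in premalignant cells, and 7 and 1 in malignant cells. The premalignant count ran from 2 higher, without wild type 2 or either premalignant library, and 3 without wild type 1, to 8 and 9 without malignant 1 and malignant 2. The malignant one was 4 without either wild type library and 11 without malignant 1. Hspa5, the Hsp70 of that compartment, was not called (log2 0.31 and 0.18, edgeR, adjusted p = 0.479 and 0.678), and its malignant libraries stood apart at 265 and 535 CPM. Leaving out malignant 1 or malignant 2 gave log2 values of 0.61 (called) and -0.39. Sdf2l1 had a log2 fold change of 1.58 ± 0.29 in malignant cells, and Dnajb9, a J protein of the same compartment, fell (log2 -1.32 ± 0.41 and -1.20 ± 0.41), with 76.9 CPM in wild type 2 against 30.5 CPM in wild type 1, and was not called without wild type 2 (log2 -0.50 and -0.39). Its premalignant call was also lost without either premalignant library, and its malignant one without malignant 1 (-1.12).

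Markers of the sorted cells and of other bone marrow cells differed between the stages as well. Of the 12 pre-B cell markers, 11 were called lower in each comparison with wild type, beside 20.3% (premalignant) and 24.3% (malignant) of all genes tested. The summed level of these markers was 7361 and 8101 CPM in wild type, 3490 and 3453 CPM in premalignant and 3197 and 2821 CPM in malignant libraries. Vpreb2, a surrogate light chain gene, was at 0 reads in malignant 1. Summed markers of myeloid cells were 796 and 1722 CPM in wild type, 243 and 257 CPM in premalignant and 60.2 and 119 CPM in malignant libraries, and those of erythroid cells 345 and 1353, 83.8 and 186, and 68.6 and 80.2 CPM. T cell markers summed to 143 and 85.0, 44.6 and 24.8, and 13.3 and 79.9 CPM, natural killer cell markers to 203 and 62.9, 10.2 and 3.10, and 3.58 and 4.62 CPM, and plasma cell markers to 860 and 755, 387 and 377, and 330 and 331 CPM. Stromal markers summed to 67.6 to 260 CPM, mostly from Pecam1, with Col1a2 and Col3a1 at 0 in some libraries, and megakaryocyte markers to 0.690 to 4.67 CPM. The part of these differences in the chaperonin results was not tested. In RNA from sorted populations, a change in the share of a cell type and a change in RNA per cell cannot be told apart. Wild type 2 held more of the myeloid and erythroid markers than wild type 1, and less of the T cell, natural killer cell and plasma cell markers. All 8 CCT genes and Hspd1 were lower in wild type 2, while Hspe1 was higher. Without wild type 2 the median log2 fold change of the members was 1.33 in premalignant and 1.64 in malignant cells. Wild type 1 also held more myeloid and erythroid markers than any Eμ-Myc library, so leaving out wild type 2 does not remove the difference in markers.

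The genes whose pattern over the 6 libraries lay nearest to the mean of the 8 CCT genes were found by the root mean square difference of log2 CPM, each gene centred on its own mean. They were Gm14586 (0.034), Mrps15 (0.036), a mitochondrial ribosomal protein gene, Gtf3a (0.038), the gene of a factor for 5S rRNA transcription, Anp32b (0.043) and Slc25a32 (0.044), a mitochondrial folate carrier gene. Mrps15, for example, measured 24.8 and 22.4 CPM in wild type, 63.2 and 62.0 CPM in premalignant and 69.0 and 76.9 CPM in malignant libraries. For the mean of Hspd1 and Hspe1 the nearest were Ppan (0.067), a ribosome assembly gene, Ipo4 (0.077), a nuclear import receptor gene, Gm12366 (0.079), Rsad1 (0.080) and Cd59b (0.082). Ppan measured 50.9 and 57.2 CPM in wild type, 229 and 199 CPM in premalignant and 305 and 224 CPM in malignant libraries. These differences are over only 6 libraries of 3 stages, and 625 genes outside the family lay no farther from the CCT mean than its farthest subunit gene (131 for the mitochondrial pair), so the pattern was not particular to the chaperonins.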

How the data were processed

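RNA-seq of sorted pre-B cells was analysed from 6 libraries, 2 for each of 3 stages, grouped by their labels. Raw counts per Ensembl gene were deposited by the authors, without normalization, after alignment with TopHat and counting with HTSeq. The submitters' processing notes name mm9, and the HTSeq options are not given in the sources used here. The authors' deposited DEseq tables hold their own comparisons (means, fold changes and p-values) and were not used here.

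All 6 libraries entered 1 edgeR quasi-likelihood fit (edgeR 4.0.16, R 4.3.3, TMM normalization, default filter on low counts), and p-values were adjusted over all genes tested by the Benjamini-Hochberg method. The thresholds are those of the study's methods. CPM are on TMM-scaled library sizes, which take most genes as unchanged, and no spike-in was used here. The standard error was taken from the log2 fold change and its F statistic. RPKM were computed from counts, total counts (30031100 to 53453055 per library) and exon lengths of GENCODE vM1 on NCBIM37, whose annotation gave a symbol for 37205 of 37991 identifiers and may differ from that of the authors. The fits were tested on simulated data.

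The members and gene lists were chosen with earlier results of these data known. Named genes were all members, for each list the gene with the largest called rise and fall in malignant vs. wild type cells among those with at least 10 CPM in the higher stage, 12 partner genes whatever their value, Myc, and for likeness the 5 nearest genes. Vpreb2, Pecam1, Acat2, Acat3, Usp16 and the neighbours are named outside that rule. Replicates of each stage differed by more than sampling noise (chi-square per degree of freedom 14.4 to 142), so each was kept as a separate sample. Alternatives were DESeq2 1.42.0, upper-quartile, RLE and total-count scaling, other filters and thresholds, a replicate block, fits of only 2 stages, each library left out in turn, other lengths and Pearson correlation.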

Additional observations from a re-analysis of the deposited data

How the results depend on the processing

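All 10 members were called higher in both comparisons with wild type under each alternative run. In malignant vs. premalignant cells none was called except without malignant replicate 1 (2) or malignant replicate 2 (1), a range of 0 to 2. The median log2 fold change of the members in premalignant vs. wild type cells was 1.35 with upper-quartile scaling and 1.23 with total counts, and 1.33 to 1.50 with 1 library left out. In malignant vs. wild type cells it was 1.56, 1.43, 1.64 with at least 10 counts in every library, and 1.64 to 1.86. In malignant vs. premalignant cells it was 0.187, 0.187, 0.244, 0.244 with DESeq2, and 0.105 to 0.297. Upper-quartile scaling moved the median of all genes in malignant vs. wild type cells by -0.17, and total counts moved it by -0.21 (premalignant) and -0.30 (malignant), with 2957 genes higher and 5367 lower in the latter. The counts of all genes called in malignant vs. premalignant cells (623 higher, 408 lower) were 194 and 64 with only 2 stages fitted, 1438 and 1372 without the filter, 1141 and 1028 with DESeq2, 0 without either premalignant library (edgeR, with 1472 and 1777 at an unadjusted p under 0.05) and up to 1796 and 2009 without malignant replicate 2.

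The ratio of Hspe1 to Hspd1 RPKM was 1.24, 0.752 and 0.646 (wild type, premalignant, malignant) with the longest transcript and 1.25, 0.760 and 0.652 with windows found nowhere else, a length chosen after seeing the data. The ratio of highest to lowest CCT gene was 3.43, 2.21 and 2.68, and 2.18, 2.08 and 2.62. With Pearson correlation 1 of the 5 genes nearest CCT and 0 of the 5 nearest the mitochondrial pair were shared.

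Signs turned only in values that were not called, with the exception of Hspa1b, whose malignant value was 0.22 without wild type replicate 2 (lowest -4.96). In malignant vs. premalignant cells Tcp1 was -0.068 with upper-quartile scaling, -0.075 with total counts, -0.0096 with RLE, -0.015 with at least 10 counts, -0.0074 with the replicate block, -0.0035 with only 2 stages, -0.018 with DESeq2 and -0.24 to 0.19 with a library left out. Cct6a was -0.015 and -0.019 with the first 2 scalings, and with a library left out Cct4 was -0.095 to 0.047 and Cct7 -0.035 to 0.545. Against wild type, Tubb6 (premalignant, -0.25 to 0.12), Vbp1 (premalignant, -0.25 to 0.14) and Hspa5 (malignant, -0.39 to 0.61) turned with a library left out, and with total counts Actb (-0.032 and -0.12) and Hspa5 (malignant, -0.11) did. The cause was not tested. Labels share replicate numbers only, and same-numbered libraries deviated together with correlations across genes of 0.41 (wild type and premalignant), 0.057 (wild type and malignant) and 0.13. With the replicate block the members' medians were 1.44, 1.73 and 0.26, and no member's call changed, while Hspa1b was no longer called in premalignant cells (-3.33). Depth did not limit the members, at 2800 reads or more.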
